A study of Saccharomyces cerevisiae with 40 samples.

Results

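The nuclear genes for the proteins of the mitochondrial ribosome were examined in a cross of 2 haploid strains of Saccharomyces cerevisiae at mid-fermentation. They were taken as every gene of the expression table whose symbol is MRPL, MRPS, MRP or RSM followed by a number. This rule found 49 of the 4388 genes of the table, 28 of them for the large subunit and 19 for the small one. MRP35 was not assigned to a subunit here, and MRP8, which carries the name, has a doubtful place in the ribosome. A further 18 genes with such a symbol in the reference annotation (R64), among them MRP4, MRP7, MRPL3, MRPL6, MRPS5, MRPS9 and RSM10, are not in the table and were not analysed here.

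The mitochondrial ribosome translates the few messages of mitochondrial DNA, which encode subunits of the respiratory chain and of ATP synthase together with 1 ribosomal protein, Var1. All its other proteins are made in the cytosol from nuclear genes and imported. Fermenting yeast on a high sugar supply represses much of respiration, and the genes of the mitochondrial ribosome are known as a large group that often rises and falls together when growth or carbon source changes.

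The parents were S288C, a haploid laboratory strain, and 59A, a prototrophic haploid derived from the wine yeast EC1118. The study's methods give S288C the alleles SUC2 and gal2 and 59A the allele ho, and the sources used here differ on the mating type of S288C. The segregants were 30 haploid progeny from 21 asci, so that some are sister spores. All strains fermented the same synthetic must, MS300, with no treatment, and RNA was taken at mid-fermentation. There were 5 separate cultures of each parent and 1 culture of each segregant, each measured on 2 hybridisations that the authors averaged.

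Each value is the log2 ratio of a strain's RNA, labelled with Cy3, to that of the 30 segregants mixed together (the pool, carrying Cy5), so 0 means the level of the pool. One dye orientation was used throughout, so for a single gene a dye effect and a true distance from the pool cannot be told apart, whereas a difference between strains is free of a constant dye effect. RNA came from whole cultures, so less message per cell and fewer cells with the message cannot be told apart either. The array medians lay between -0.03 and 0.03, and the correlation between cultures of one parent lay between 0.82 and 0.96. The 4 ASP3 genes, which laboratory strains carry and many other strains lack, had means of 0.46 to 0.57 in S288C and of -0.61 to -0.52 in 59A, so they were higher in the arrays labelled S288C. No member had a missing value on any of the 40 arrays.

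The first comparison asked which of these genes differed between the laboratory and the wine parent. The members did not move as a block. MRPL13 was 2.19-fold higher in S288C, and RSM19, MRPS35 and MRP2 were higher in 59A by 0.35 to 0.40 on the log2 scale. In all, 8 of 49 members, or 16.3%, differed at an adjusted p under 0.01 (limma, Benjamini-Hochberg adjustment over all 4388 genes), whereas 30.8% of all genes did. Higher in S288C were 2 members beside 13.7% of all genes, and higher in 59A were 6 members beside 17.1% of all genes. The median difference, S288C minus 59A, was -0.06 over the members and -0.01 over all genes, and 30 of 49 members had a difference below 0. At an unadjusted p under 0.05 there were 18 members, or 36.7%, and 52.8% of all genes. The 5 values of one parent lay apart from the 5 of the other for 10 members, which were the 8 called ones with MRP10 and RSM28, whereas 33.5% of all genes were so separated.

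**Figure D1:**
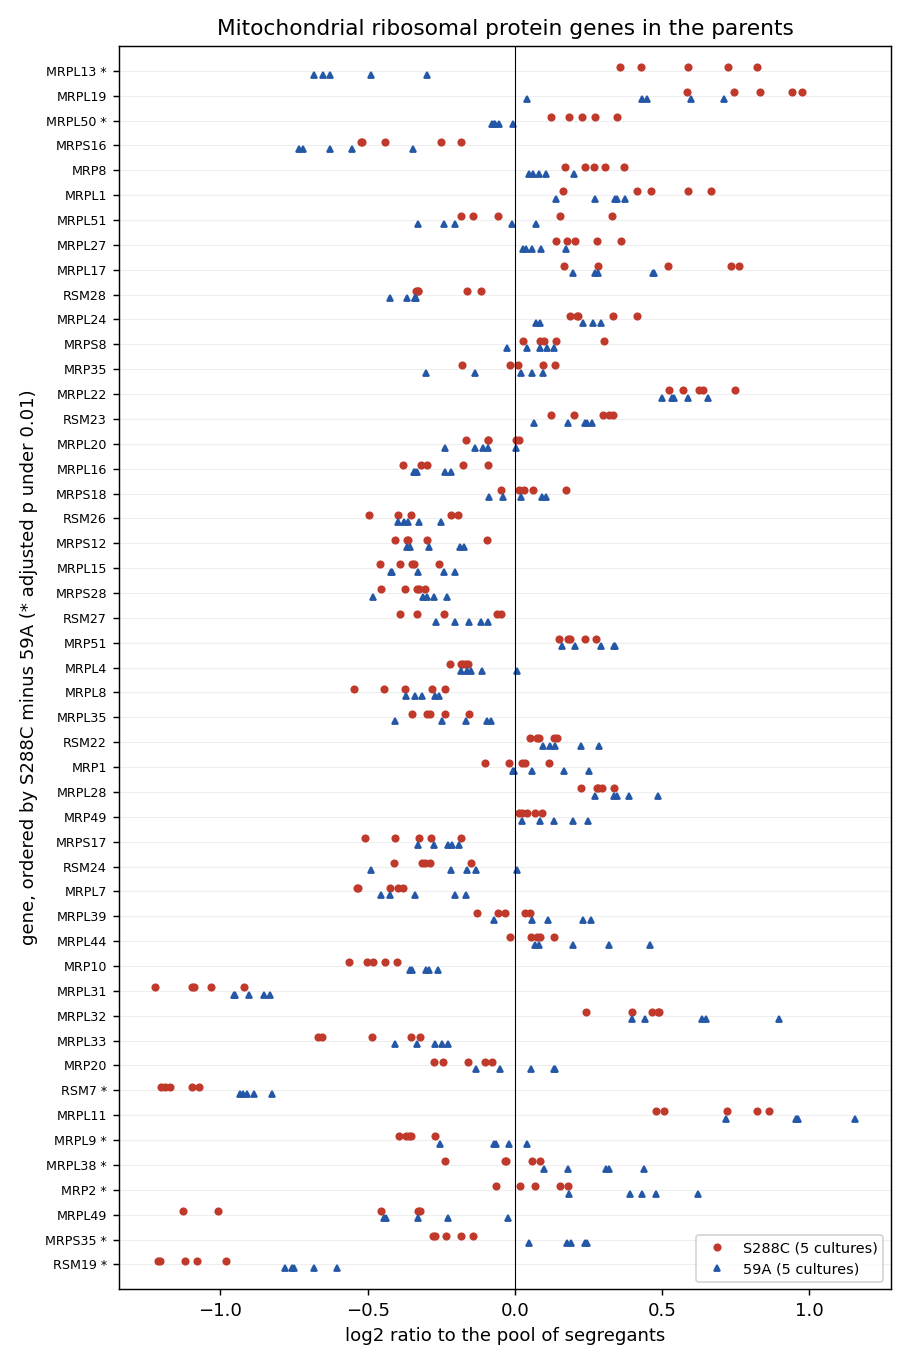
Log2 ratio to the pool (x axis) of the 49 mitochondrial ribosomal protein genes (y axis, ordered by S288C minus 59A) in each of 5 cultures of S288C (red circles) and of 59A (blue triangles), with a star on the 8 genes at an adjusted p under 0.01. MRPL13 at the top is the gene with the widest gap, and for most genes the cultures of both parents overlap.

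MRPL13 encodes a protein of the large subunit. Its values in the 5 S288C cultures were 0.36, 0.82, 0.43, 0.73 and 0.59. In the 59A cultures they were -0.49, -0.63, -0.65, -0.68 and -0.30. Every S288C culture thus read above 0 and every 59A culture below it. S288C averaged 0.58 ± 0.20 and 59A -0.55 ± 0.16 (SD over 5 cultures), a difference of 1.13 ± 0.10 (SE, limma adjusted p = 1.29e-06). By size of the difference, MRPL13 ranked 96 among the 4388 genes, and the next member, RSM19, ranked 739.

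MRPL50, for the counterpart of bacterial L9 in the large subunit, was the other member higher in S288C. It read 0.23, 0.12, 0.35, 0.19 and 0.27 in S288C and -0.07, -0.05, -0.08, -0.01 and -0.07 in 59A. The 59A cultures were tightly grouped just under 0, with a mean of -0.06, which was also the mean of the segregants. The difference was 0.29 ± 0.05 (SE, limma adjusted p = 0.000538).

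Of the 6 members higher in 59A, 4 belong to the small subunit. RSM19, for the counterpart of bacterial S19, read -1.08, -1.21, -0.98, -1.21 and -1.12 in S288C and -0.75, -0.78, -0.68, -0.60 and -0.76 in 59A. Both parents read far below 0 for this gene, S288C the more so, with a difference of -0.40 ± 0.06 (SE, adjusted p = 0.000102). The segregants measured singly were all below 0 too, from -1.83 to -0.29 with a mean of -0.91. Readings of RSM19 below 0 were thus shared by parents and progeny, and the midpoint of the parents was -0.01 from the mean of the segregants. The pool is a mix of these same segregants, so the readings are not taken here as a level below the pool. MRPS35 read -0.14, -0.27, -0.18, -0.28 and -0.23 in S288C and 0.24, 0.18, 0.24, 0.19 and 0.05 in 59A. The parents stood on opposite sides of 0, and the difference was -0.40 ± 0.05 (SE, adjusted p = 4.79e-05).

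MRP2, for the counterpart of bacterial S14, read 0.18, -0.06, 0.15, 0.02 and 0.07 in S288C and 0.48, 0.39, 0.62, 0.43 and 0.18 in 59A, so the lowest 59A culture all but met the highest S288C culture. The difference was -0.35 ± 0.08 (SE, adjusted p = 0.00284), and it was not called by the methods' t-test (adjusted p = 0.0113). RSM7, for the counterpart of bacterial S7, was the fourth small-subunit gene. It lay between -1.20 and -1.07 in S288C and between -0.93 and -0.82 in 59A, a difference of -0.25 ± 0.05 (SE, adjusted p = 0.000834) between 2 narrow groups. With normal scores its adjusted p was 0.0177.

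The remaining pair belongs to the large subunit. MRPL9, for the counterpart of bacterial L3, read -0.35, -0.39, -0.36, -0.27 and -0.37 in S288C and -0.07, -0.06, 0.04, -0.02 and -0.25 in 59A. Replicate 5 of 59A came close to the S288C cultures, and the difference was -0.28 ± 0.06 (SE, adjusted p = 0.00188). MRPL38, for the counterpart of bacterial L14, read -0.03, -0.24, 0.06, -0.03 and 0.09 in S288C and 0.18, 0.31, 0.32, 0.44 and 0.10 in 59A. Its difference of -0.30 ± 0.08 (SE, adjusted p = 0.00655) was the one nearest to the threshold among those called. It no longer passed 0.01 without S288C replicate 1, 2 or 4 or without 59A replicate 2, 3 or 4, where the adjusted p lay between 0.0127 and 0.0187.

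Among the 41 members not called, MRPL19 and MRPL49 had the widest gaps. MRPL19, for the counterpart of bacterial L11, read 0.94, 0.58, 0.98, 0.74 and 0.83 in S288C against 0.60, 0.71, 0.43, 0.45 and 0.04 in 59A (difference 0.37 ± 0.11, SE, adjusted p = 0.019). MRPL49, for the counterpart of bacterial L21, read -1.01, -1.13, -0.45, -0.33 and -0.32 in S288C and -0.23, -0.02, -0.33, -0.45 and -0.44 in 59A. The first 2 S288C cultures of MRPL49 were apart from all others, and the difference of -0.35 ± 0.16 (SE) had an adjusted p of 0.0848. MRP8 differed by 0.17 ± 0.05 (SE, adjusted p = 0.0176).

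Among the members, 3 stand in lists that the study drew up on these same samples for regions linked to many transcripts, so their values here are no independent evidence. MRP10, a small-subunit protein whose folding depends on the import machinery of the intermembrane space, averaged -0.48 ± 0.06 over the S288C cultures and -0.31 ± 0.04 over those of 59A (SD, 5 cultures, adjusted p = 0.0121). MRPL11, for the counterpart of bacterial L10, was at 0.68 ± 0.18 and 0.95 ± 0.16 (adjusted p = 0.0311). MRPS12, for the counterpart of bacterial S12 at the decoding centre, was at -0.31 ± 0.12 and -0.27 ± 0.09 (adjusted p = 0.729). None of these passed 0.01 in limma with all cultures. MRP10 did with the methods' t-test (adjusted p = 0.00454) and without S288C replicate 2 (0.00851), and MRPL11 did without 59A replicate 5 (0.00977).

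Other genes of mitochondrial translation were set beside the members. Of all genes 30.8% passed the limma threshold in either direction. The lists are short, and none was tested against that share. Of 9 further ribosomal proteins with other names, RML2 was higher in 59A (-0.45 ± 0.06, SE, adjusted p = 3.15e-05) and none was higher in S288C. Of 12 translation and assembly factors none passed in limma in either direction, 4 had an unadjusted p under 0.05, and 1 passed by the methods' t-test after adjustment. Of 7 mitochondrial tRNA synthetases, MST1 for threonine and ISM1 for isoleucine were higher in 59A, ISM1 not by the methods' t-test (adjusted p = 0.0222). The 11 translational activators, which help the ribosome start on particular messages, had 6 genes past the threshold. PET111 (for COX2), ATP22 (for ATP6), CBP1 (for COB), PET122 and PET54 (both for COX3) were higher in 59A, and CBS2 (for COB) was higher in S288C. Of 6 protein genes of mitochondrial DNA in the table ATP6 alone passed, higher in S288C by 0.55 ± 0.13 (SE, adjusted p = 0.00453), and by the methods' t-test it did not. VAR1 is not in the table and was not analysed here.

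The segregants show how far each gene varied in the progeny. The SD over the 30 segregants had a median of 0.26 over the members and of 0.29 over all genes, on the log2 scale. The SD among cultures of one parent, pooled over both parents, had a median of 0.10 for the members and 0.11 for all genes. The segregants were thus spread 2.74 times as widely as cultures of one strain for the median member, and 2.69 times for the median gene. Each segregant was grown once, so its own culture spread was not measured. In 13 members, or 26.5%, the ratio was under 2, beside 26.7% of all genes. In MRPL49 the segregants were less spread (SD 0.18) than the parental cultures (0.30).

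RSM7, MRPL9 and MRPL13 had the largest spread among the members. RSM7 ran from -0.75 in segregant 20b through a median of 0.47 to 1.42 in segregants 16d and 23b (SD 0.60). Its 5 cultures of S288C and 5 of 59A all lay below every segregant. MRPL9 ran from -0.59 in segregant 22c through a median of -0.10 to 1.36 in segregant 20a (SD 0.54), and 14 segregants were above both parental means. MRPL13 ran from -1.0 in segregant 20a through 0.35 to 0.80 in segregant 19b (SD 0.52).

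The segregants' values of MRPL13 filled the space between the parents. At or above the lowest S288C culture were 15 segregants, at or below the highest 59A culture were 6, and 9 lay between. None was above the highest S288C culture, whereas 4 were below the lowest 59A culture. MRPL13 also ran against the leading axis of all genes over the segregants, described below (r = -0.75). Its lowest segregants, 20a and 19c, were the farthest out on that axis. The part of that axis in the spread of MRPL13 was not tested. At the other end of the scale, MRP49 had an SD of 0.13 (-0.28 to 0.38) and MRPS18, for the counterpart of bacterial S11, had 0.14 (-0.28 to 0.31), each with both parents inside the range of the segregants.

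**Figure D2:**
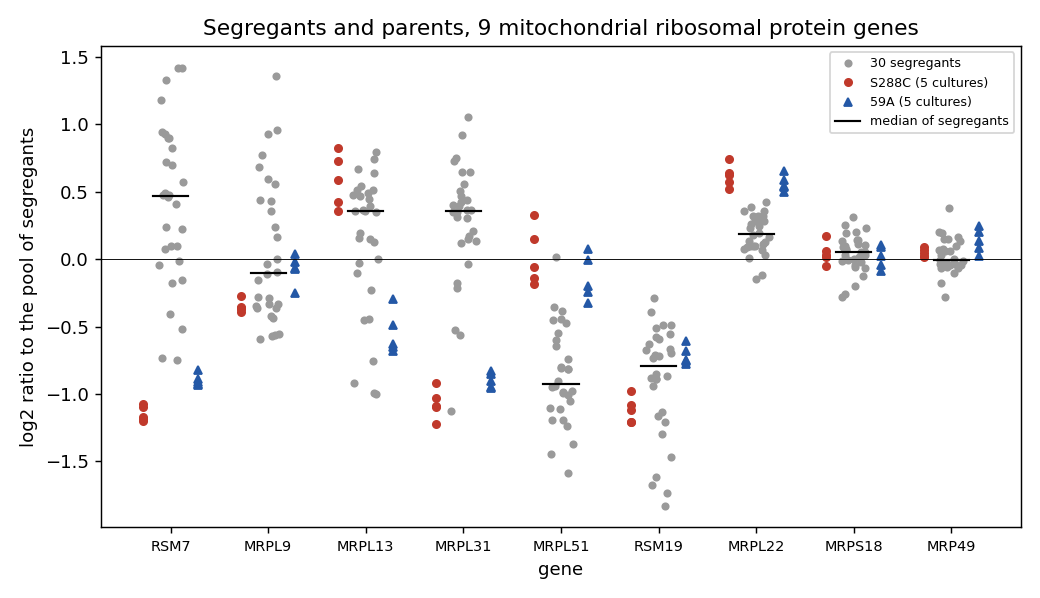
Log2 ratio to the pool (y axis) of 9 mitochondrial ribosomal protein genes (x axis) in the 30 segregants (grey points, bar at their median) and in 5 cultures each of S288C (red circles) and 59A (blue triangles). RSM7 has both parents below all segregants, MRPL22 has both above them, and MRPS18 and MRP49 have the smallest spread of the members.

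Both parents lay outside the range of all segregants on the same side for 2 members, RSM7 and MRPL22, beside 1.69% of all genes. MRPL22, for the counterpart of bacterial L22, read 0.50 to 0.75 in the parents and -0.14 to 0.42 in the segregants. Other members came near this. MRPL31 had parental means of -1.07 and -0.90 and a segregant median of 0.36, with 29 of 30 segregants above both means. MRPL51 had parental means of 0.02 and -0.14 and a segregant median of -0.92, with 29 of 30 segregants below both. The midpoint of the parents was more than 0.5 away from the mean of the segregants for 7 members, or 14.3%, and for 13.1% of all genes. Whether parents and segregants were hybridised in one series is not given in the sources used here, and its part in these distances was not tested.

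Over the segregants the members did not rise and fall as one group. The Pearson correlation over 30 segregants had a median of 0.03 over the 1176 pairs of members, with the 5th and 95th percentiles at -0.53 and 0.63, and a median of -0.01 over all pairs of genes. Pairs within the large subunit had a median of 0.00, pairs within the small subunit of 0.09, and pairs across subunits of 0.04. Cytosolic ribosomal protein genes (126 in the table) had a median of 0.26, and the 6 protein genes of mitochondrial DNA, which are transcribed in the organelle, had 0.81. All these correlations share the same 30 arrays and pool and are given as a description. They are not compared by a test, and paralogs among the cytosolic genes are near-identical in sequence.

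Within the 49 genes there was nevertheless a set that went together. The leading axis of the members (first principal component of standardised values) held 28.7% of their variance, and 13 members had a correlation over 0.7 with it. These were MRPL7, MRPL9, MRPL16, MRPL20, MRPL35 and MRPL39 of the large subunit and MRP1, MRP10, MRPS12, MRPS28, RSM7, RSM24 and RSM27 of the small subunit. Their 78 pairs had correlations of 0.37 to 0.88 with a median of 0.64. The set was chosen by this correlation, so the last values are no test of it. MRPL9 and MRPL39 made the closest pair of all members (0.88). Opposite in sign, with correlations to the axis under -0.5, were MRPS8, MRPL50, MRP35, MRPL32, MRP51 and MRP8, and MRP10 with MRP51 made the most opposed pair (-0.79). The other 30 members lay between.

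**Figure D3:**
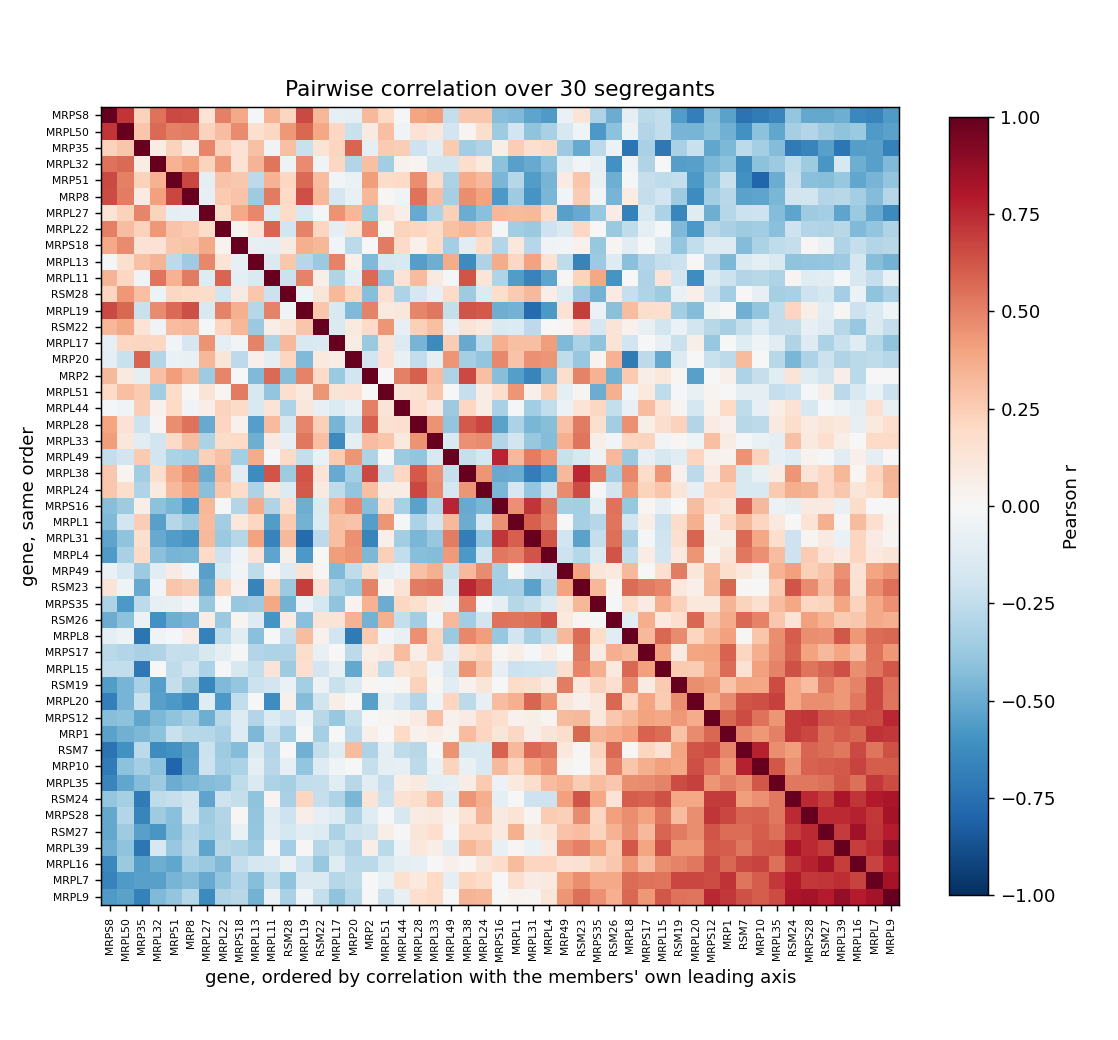
Pearson correlation over 30 segregants (colour scale from -1 in blue to 1 in red) for each pair of the 49 genes, with both axes in the order of each gene's correlation with the members' own leading axis. The 13 genes at the lower right form a red block with pair correlations of 0.37 to 0.88, and the genes at the upper left are blue against them.

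The median of the 13 genes ran from -0.58 in segregant 7a and -0.56 in segregant 22a to 0.41 in segregant 16d. In the parents it lay between -0.35 and -0.27 in S288C and between -0.30 and -0.16 in 59A. Of the 13 genes 2, MRPL9 and RSM7, were called between the parents, beside 30.8% of all genes. This set moved with the leading axis of all genes, which held 31.0% of the variance of 4379 genes and on which segregants 16d, 19c and 20a lay farthest out. The correlation of the members' axis with that axis was 0.75, and the 13 genes had correlations of 0.34 to 0.85 with it. Of all members 34.7% and of all genes 40.2% had a correlation with that axis beyond 0.5 in either direction. MRPL13, which is not among the 13 genes, had a correlation of -0.75 with it. The part of that axis in the co-variation of the 13 genes was not tested. Without those 3 segregants, a choice made after seeing the data, the median over the 78 pairs was 0.58.

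A second axis of the members held 22.2% of their variance and set another group apart. Positive on it beyond 0.7 were MRPL38 (0.86), MRPL19 (0.78), RSM23 (0.76), MRPL28 (0.73) and MRP2 (0.72). Negative beyond -0.6 were MRPL31 (-0.86), MRPS16 (-0.73), MRPL4 (-0.69) and MRPL1 (-0.61). Both groups mix the subunits. Beyond 0.5 in size were 11 positive and 9 negative members. The correlation of this second axis with the second axis of all genes was 0.79 in size, and with the leading axis of all genes it was 0.51.

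Some members lie close together on a chromosome. In the order of protein-coding genes in R64, 7 pairs had at most 9 genes between them. RSM19 and MRPS12 are direct neighbours on chromosome XIV and had a correlation of 0.43 over the segregants. RSM27 and MRPL9 on chromosome VII, with 3 genes between, had 0.79, and MRPS28 and MRP1 on chromosome IV, with 8 between, had 0.67. MRPL31 and MRP8 on chromosome XI, with 4 between, had -0.59. The median of the 7 pairs was 0.43, beside 0.03 over all pairs of members. Of the 7 pairs 6 were above 0, beside 52.4% of all pairs of members. RSM27, MRPL9, MRPS28 and MRP1 all belong to the 13 genes above, a set chosen by correlation. Neighbouring pairs among all genes were not computed. The part of position on the chromosome was not tested.

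The last comparison asked which members followed the fermentation traits of the segregants. The traits were the highest rate of CO2 release (Rmax), the rates at a pair of later, fixed points of the fermentation (R50 and R70), its duration (Fd), the cell population (Cp), the nitrogen taken up (Nass), and the final succinic acid, glycerol, acetic acid and pyruvic acid. Spearman's rho was computed for 49 members and 10 traits, which makes 490 relations, with adjustment over the 4388 genes for each trait. At a size of rho over 0.6 and an adjusted p under 0.05, 2 of the 490 were called, or 0.408%, whereas 1.16% of all relations of all genes were. Both were with pyruvic acid, where 3.17% of all genes were called. At an adjusted p under 0.05 with no limit on rho, 13 relations of 11 members were called beside 2.78% of those of all genes, and 8 of the 13 were with pyruvic acid.

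**Figure D4:**
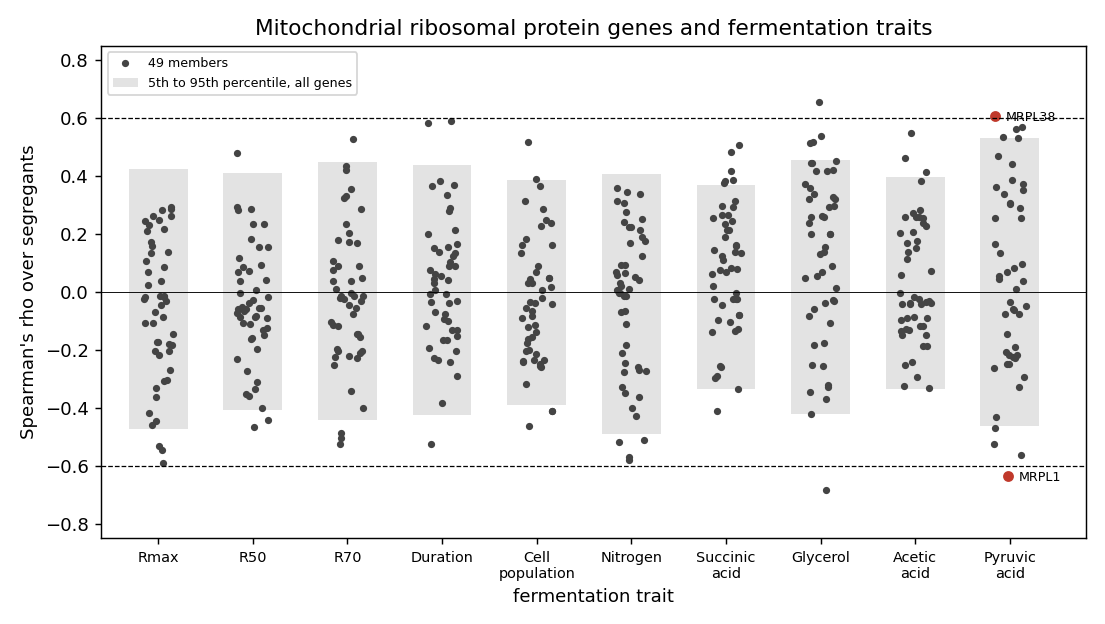
Spearman's rho over the segregants (y axis) of each of the 49 members (points) with each of 10 fermentation traits (x axis), over the 5th to 95th percentile of all genes (grey bars), with dashed lines at 0.6 and -0.6. The red points are MRPL38 (0.61) and MRPL1 (-0.63) with pyruvic acid, the relations that passed both limits.

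Pyruvic acid, the end product of glycolysis before decarboxylation to acetaldehyde or import into mitochondria, ran from 0.0725 to 0.368 g per l over the segregants. MRPL1, for the counterpart of bacterial L1, fell with it. Its level ran from -0.61 in segregant 5a through a median of -0.03 to 0.34 in segregant 24a, which had the least pyruvic acid. Spearman's rho was -0.63, with a permutation p of 0.00026 and an adjusted p of 0.0105. Pearson's r was -0.61, with a permutation p of 0.00029. Without segregants 14a and 31b, the farthest from the median of the trait, r was -0.56.

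MRPL38 rose with pyruvic acid. Its level ran from -0.99 in segregant 23b through -0.24 to 0.34 in segregant 20a. Spearman's rho was 0.61, with a permutation p of 0.00045 and an adjusted p of 0.013. Pearson's r was 0.59, with a permutation p of 0.00057, and it was 0.58 without segregants 14a and 31b. With Pearson's r in place of rho, and without segregants 16d, 19c and 20a (rho 0.59), MRPL38 no longer passed the limit of 0.6, and MRPL1 still did.

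**Figure D5:**
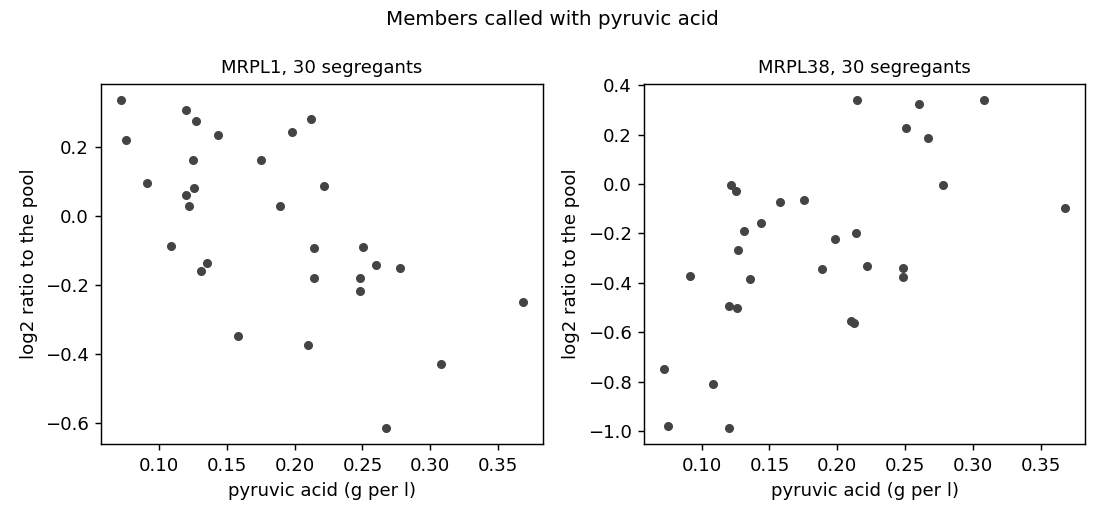
Log2 ratio to the pool (y axes) of MRPL1 (left) and MRPL38 (right) against pyruvic acid in g per l (x axes), with 1 point for each of the 30 segregants. MRPL1 falls with rising pyruvic acid (rho -0.63) and MRPL38 rises (rho 0.61), each with wide scatter.

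The 8 members at an adjusted p under 0.05 with pyruvic acid, 16.3% of 49 beside 10.8% of all genes for this trait, were not separate observations. MRPL38, MRPL19, MRPL28, RSM23 and MRP2 were positive and had correlations of 0.49 to 0.76 among themselves, and MRPL1, RSM26 and MRPL4 were negative and had 0.50 to 0.63 among themselves. The first group had correlations of 0.72 to 0.86 with the second axis of the members and the other group of -0.69 to -0.50, where MRPL31 and MRPS16, which are not among the 8, were lower still. Over the 49 members, the correlation with that axis and rho with pyruvic acid went together (r = 0.91). For that axis and rho with glycerol r was 0.81. All of these come from the same 30 segregants, and the axis was built from the members themselves. A trait that follows the axis over the segregants would give a high value by construction, so neither value is a test. The correlation of the axis itself with either trait over the segregants is not given here.

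For glycerol, which yeast makes to reoxidise NADH, no gene of the table was called, by rho or by Pearson's r, and 22.1% of all genes had an unadjusted p under 0.05. Among the members 14 of 49, or 28.6%, did. The median rho was 0.20 over the members and 0.03 over all genes, and 33 members had a rho above 0. The ends were MRPL28 (rho 0.66, permutation p = 0.0001, adjusted p = 0.0771, r 0.59 with permutation p = 0.00054, 0.64 without the 2 farthest segregants) and MRPL27 (rho -0.68, permutation p = 8e-05, adjusted p = 0.0674, r -0.59 with permutation p = 0.00051, -0.60 without them). Both are in size the largest correlations of a member with any trait, and neither passed the adjustment for this trait. Adjusted over all genes and 10 traits together, both passed, at 0.0178 and 0.0105.

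Of the kinetic traits, MRPL24 had the lowest rho with Rmax (-0.59, permutation p = 0.00085, adjusted p = 0.0325) and with Nass (-0.58, permutation p = 0.0011, adjusted p = 0.0402), just short of 0.6. Pearson's r was -0.52 (permutation p = 0.0035) and -0.44 (permutation p = 0.016), and -0.45 for both without the 2 farthest segregants. MRPL24 is the gene for the counterpart of bacterial L28. The highest rho of any member was 0.29 with Rmax (MRPL31, adjusted p = 0.372) and 0.36 with Nass (MRPS16, adjusted p = 0.24).

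MRPS18 had a rho of 0.59 with the duration, also just short of the limit (permutation p = 0.00073, adjusted p = 0.0273, r 0.55 with permutation p = 0.0022, 0.49 without segregants 22c and 29c, the longest fermentations). It was also the member of the second-smallest spread, so this relation plays out within a range of -0.28 to 0.31. MRPS35 went the other way. Its rho was 0.48 with R50, 0.53 with R70 and -0.52 with the duration (adjusted p = 0.132, 0.0527 and 0.0684). MRPL51 was opposite to MRPS35, at -0.47 with R50 and -0.52 with R70 (adjusted p = 0.15 and 0.0556). Its rho with the duration, a pair added after seeing the data, was 0.58 (permutation p = 0.00083, adjusted p = 0.0317), short of 0.6. Pearson's r was 0.61 (permutation p = 0.00048, adjusted p = 0.0388), which passed both limits, and it was 0.53 without segregants 22c and 29c. With 1 segregant per ascus rho was 0.73 (adjusted p = 0.0276). Between the parents MRPS35 was higher in 59A, for which the labels give the shorter fermentation. MRPS18 and MRPL51 were not called between the parents (limma adjusted p = 0.714 and 0.234).

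For the other traits no gene of the table was called by rho or by Pearson's r, and the members with an unadjusted p under 0.05 were 10.2% for the cell population, 14.3% for succinic acid and 8.16% for acetic acid, beside 13.2%, 9.41% and 10.9% of all genes. The ends for the cell population, measured in 29 segregants, were MRPL1 (rho 0.52, adjusted p = 0.263) and MRPL15 (-0.46, adjusted p = 0.311). For succinic acid they were MRP49 (0.51, adjusted p = 0.349) and MRPL27 (-0.41, adjusted p = 0.505), and for acetic acid MRPL33 (0.55, adjusted p = 0.195) and MRPL39 (-0.33, adjusted p = 0.51). The median rho over the members lay between -0.06 and 0.08 for the 9 traits other than glycerol, and between -0.03 and 0.03 over all genes for these.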

How the data were processed

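The authors hybridised Cy3-labelled sample RNA against a Cy5-labelled pool of the segregants on spotted oligonucleotide arrays, normalized them by print-tip loess and quantiles (R 2.9.2 and limma per the labels) and deposited log2 ratios, the mean of 2 technical hybridisations, for 40 samples. Scanner values were not used here, so the signal over background of each gene is unknown, and the number of arrays limits the precision. For its linkage analysis the paper left out transcripts of low Cy5 signal against background. Whether that filter shaped the table used here was not checked. The trait values were taken from the labels as deposited, as other measurements with their own units. No column of values was left unused (0).

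Probe names gave systematic names. R64 named 4104 of 4388 genes and 284 kept the name in the table. No build is named for the array, so no coordinates are given. For the parents, limma (version 3.58.1, R 4.3.3) was fitted to all genes with 5 against 5 cultures (lmFit, then eBayes), with Benjamini-Hochberg adjustment and a threshold of 0.01. Traits were compared by Spearman's rho over segregants (scipy 1.17.1, t approximation over all genes, two-sided, with 100000 two-sided permutations for the named pairs). Members and lists were chosen with earlier results of these data known. The members named are up to 5 called higher in each parent by size of difference, the highest and lowest rho for each trait, the 3 largest and 2 smallest SD over the segregants, the 3 genes in the study's lists and MRP8. Other names, among them RSM28, MRPL19, MRPL49, MRPL22 and the genes of the co-varying groups, were chosen after their values were seen. The scripts were tested on simulated data. Settings varied were centred arrays, the methods' t-test, a block for replicate number, normal scores, robust shrinkage, complete data, each culture left out, Pearson's r, 1 segregant per ascus and other limits. Motifs in promoters were planned and were not analysed here.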

Additional observations from a re-analysis of the deposited data

How the results depend on the processing

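The count of 8 members called between the parents was 7 with the methods' t-test after adjustment (MRP2 and MRPL38 lost, MRP10 gained), 7 with normal scores (RSM7 lost), 8 with centred arrays, robust shrinkage or complete data, and 7 to 10 with 1 culture left out. At an adjusted p under 0.05 it was 16. With the replicate number as a block it was 7, MRPL38 being lost (adjusted p = 0.015). Whether equal numbers stand for paired cultures is not given in the sources used here. Deviations of cultures with equal numbers correlated at -0.29 to 0.39, and 2 of 5 pairs were over 0.1. The best match was the culture of the same number for 2 of 5 S288C cultures and 1 of 5 59A cultures. No pairing was assumed in the main fit. The share of all genes called between the parents is given for the main fit alone, 30.8% at 0.01. The counts under the other settings, with the 16 at 0.05, are therefore not set against all genes. The median difference of the members was -0.06 to -0.04 with 1 culture left out and -0.18 with normal scores, which are on a scale of their own. MRPS18, which was not called, read from -0.0029 without S288C replicate 2 to 0.0521 without S288C replicate 4, against 0.0285 with all cultures. The 2 relations called with traits became 10 with 1 segregant per ascus (21 segregants, 2.04% of the members' relations beside 1.36% of those of all genes), 4 each with centred arrays, normal scores and adjustment over all traits (0.816% beside 1.13%, 1.14% and 1.26%), 13 with no limit on rho (2.65% beside 2.78%) and 6 without segregants 22c and 29c (1.22% beside 1.13%). MRPL1 and MRPL38 with pyruvic acid were among them in each of these, and MRPL24 with Rmax or Nass entered under 5 of the 6 and MRPS18 with the duration under 4. Why the count rises was not tested. The median SD of the members over the segregants stayed between 0.25 and 0.26, and the median pair correlation between 0.02 and 0.03. Motif counts in promoters were not run.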

Other observations

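The genes whose segregant values were most like those of MRPL13, chosen after seeing the data, were PEP1 (rho 0.85), YLL044W (0.85) and PBP1 (0.85), over 30 segregants. PEP1, YLL044W and PBP1 were also higher in S288C than in 59A, by 0.89, 0.49 and 1.07 on the log2 scale. PEP1 and PBP1 lie on chromosomes II and VII, whereas MRPL13 lies on chromosome XI. ALD5, for a mitochondrial acetaldehyde dehydrogenase, was the most opposed (-0.78), followed by YGL165C (-0.74) and SIT4 (-0.72). S288C minus 59A was -0.12 for ALD5, 0.52 for YGL165C and -0.03 for SIT4. MRPL13 had a correlation of -0.75 with the leading axis of all genes, and 15.9% of all genes were beyond 0.7 in size on that axis. Whether these genes share more with MRPL13 than that axis was not tested.

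None of the 48 groups of 5 parental cultures looked at for the 24 named members held a single value that stood apart from the rest by Dixon's criterion, which chance alone meets in about 1 in 20 groups.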
